A study of Mus musculus with 10 samples.

Results

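Immature conventional type 2 dendritic cells (cDC2s) were set against immature LysoDCs, both sorted from mouse Peyer's patches and sequenced in 1 single-cell library. Cells were chosen by the hashtag they carried, an antibody bearing a DNA barcode that was added to each sorted population before pooling: B0305 for immature cDC2s and B0302 for immature LysoDCs. A cell was used when it had a single hashtag, at least 1000 UMIs (unique molecular identifiers, each counting 1 captured mRNA molecule), at least 500 genes and at most 10% mitochondrial UMIs. This gave 970 immature cDC2s and 655 immature LysoDCs, 1625 of the 14687 cells that met the same rules in the whole series and of the 7217 in dataset 1, the library in question.

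The study sorted LysoDC and cDC2 subsets from the Peyer's patches of 30 untreated mice, and blood cells with high CD115 from 20 mice given clodronate liposomes intravenously 9 days earlier. All were female C57BL/6Rj mice with no stated mutation, and no age is stated in the labels used here. Besides the pair compared here, dataset 1 held follicular, intermediate and mature LysoDCs, maturing cDC2s and 3 blood populations: monocytes with Ly6C, monocytes with CD43, and DN blood cells, which lack both. Dataset 2, from the patches of 20 further mice and the blood of 18, supplied 681 LysoDCs of 4 hashtags that the labels do not tie to a subset. Its sample titles name follicular, immature, intermediate and mature LysoDCs, and the 4 hashtags were pooled. The patches were digested for 40 min, CD11c+ cells were enriched on beads, and in dataset 1 the hashtags were added after sorting (in dataset 2 before it). Both populations come from untreated animals, were pooled over mice before tagging and cannot be traced to single mice. The labels name the antibodies of the sort but not the gates that separate immature from maturing or mature cells.

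Peyer's patches are the lymphoid follicles of the small intestine, in whose subepithelial dome phagocytes receive antigens and microbes taken up across the epithelium. Conventional DCs arise from a bone marrow precursor that needs the cytokine receptor Flt3, express the transcription factor Zbtb46, and carry antigen to naive T cells. LysoDCs are lysozyme-rich phagocytes of the dome that derive from monocytes, take up particles and bacteria avidly, and share many genes with tissue macrophages while keeping surface MHC class II. The comparison therefore sets 2 lineages of antigen-presenting cell side by side in the same tissue at a stage that carries the same name.

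Each population is 1 sum of counts from 1 pool, so no difference below has a replicate, a p-value or an error rate. Levels are CPM, the gene's UMIs divided by all gene UMIs of the sum and multiplied by 1e+06. Each interval is an exact 95% interval for counting error alone and holds no spread between mice. The cDC2 sum held 7430180 UMIs with a median of 7388 per cell, and the LysoDC sum held 8782758 with a median of 13652. Median genes per cell were 2407 and 3259, and the median mitochondrial share was 2.47% and 3.34%. The cells used were 16.2% of the 6000 sorted cDC2s and 17.2% of the 3800 sorted LysoDCs. Hashtag depth also differed, with a median of 175 UMIs of the own tag in cDC2s and 924 in LysoDCs. In a sum, more cells with a transcript and more transcript per cell cannot be told apart, so shares of cells are given for the markers. Free RNA in the suspension gives UMIs to cells that do not express a gene, and the 3 blood populations of the same library, with median depths of 2963 to 4484 UMIs, are printed as the level it can reach in cells that lack the gene. Where blood cells express the gene themselves, they give no such level.

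A gene was counted when its higher sum reached 10 CPM, which 7833 genes did. Of these, 1047 (13.4%) were at least 2-fold higher in immature cDC2s, 811 (10.4%) were at least 2-fold higher in immature LysoDCs, and 5975 lay within 2-fold. The largest ratios were more often on the cDC2 side: 246 genes were at least 8-fold higher in cDC2s and 186 in LysoDCs, and at 32-fold the numbers were 97 and 15. Background counts lie beside this asymmetry, and their part in it was not tested. Of the 811 genes higher in LysoDCs, 628 had a cDC2 level at or below the highest blood sum and 434 at or below the lowest. Of the 1047 genes higher in cDC2s, 903 had a LysoDC level at or below the highest blood sum. The lower value of these genes is no more than what blood cells of that library show. Genes that blood cells express themselves were not left out of these counts. The share of all counted genes that meets the same conditions was not computed, nor the lowest-blood count for the cDC2 side. The counts thus have no background share beside them and are not read as an excess. Scaling also sets the split. The median log2 ratio over all counted genes was 0.25 by CPM and -0.04 with TMM scaling, which moved the counts to 685 higher in cDC2s and 1096 in LysoDCs. With mitochondrial and ribosomal protein genes left out of the total, the counts were 1405 and 767. Ribosomal protein genes took 21.1% of the UMIs of cDC2s and 13.3% of those of LysoDCs, and their part in the split was not tested. Ratios below are on the CPM scale, where 0.25 is the shift of the middle gene.

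**Figure D1:**
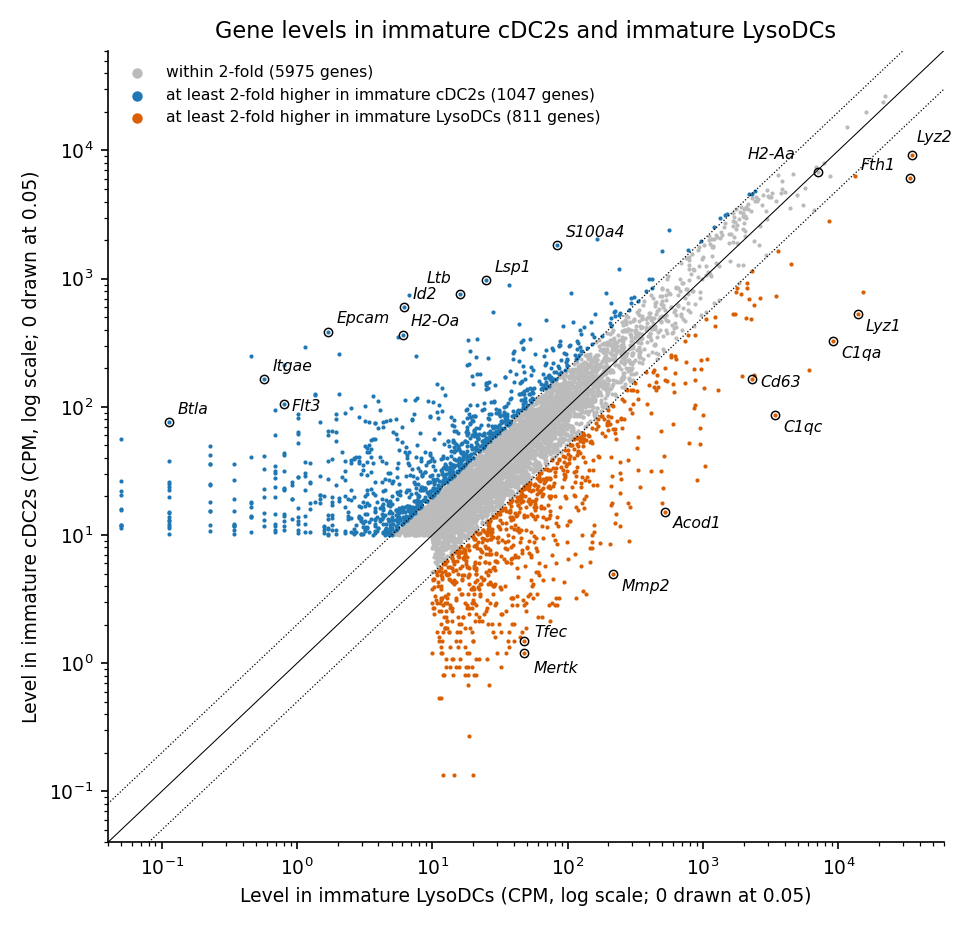
Level of each of the 7833 counted genes in immature LysoDCs (horizontal, CPM, log scale) and immature cDC2s (vertical, CPM, log scale), with the line of equal levels and dotted lines at 2-fold. Blue genes lie at least 2-fold higher in cDC2s (1047) and orange genes at least 2-fold higher in LysoDCs (811), and the named genes spread on the cDC2 side to LysoDC levels near 0.

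The marker lists went with the labels on both sides. They were chosen with earlier results of these data known, so this is no independent check of the labels. The list of 20 core conventional DC genes had 19 counted, of which 13 were at least 2-fold higher in immature cDC2s and 0 in LysoDCs, with a median log2 ratio of 2.13. Flt3 (ENSMUSG00000042817, GRCm38 chr5:147330741-147400489, minus strand), the receptor on which conventional DCs depend, was at 104 CPM in cDC2s and 0.797 in LysoDCs, from 776 and 7 UMIs. That is 131-fold (interval 63.3 to 327) higher in cDC2s, and blood cells showed 3.32 to 47.7 CPM with the highest value in DN blood cells. Flt3 UMIs were found in 50.4% of cDC2s (47.2 to 53.6%), in 1.07% of LysoDCs and in 0.905 to 17.9% of blood cells. After each cell was thinned to 2000 UMIs, which left out shallower cells and kept 954 cDC2s and 641 LysoDCs, the shares were 19.6% and 0%. Zbtb46 (chr2:181387762-181459426, minus strand), the transcription factor that marks conventional DCs, was at 63.3 against 1.94 CPM, with UMIs in 37.2% and 2.44% of cells. Kit, the stem cell factor receptor, was at 117 against 7.74 CPM. Bcl11a, a transcription factor of DC and lymphoid progenitors, stood at 60.6 against 1.71 CPM, and Kmo, an enzyme of the kynurenine pathway, at 69 against 4.33 CPM.

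Not every core gene separated the populations. Dpp4, the surface peptidase CD26, was at 259 against 263 CPM, a ratio with an interval that includes 1. The class II gene H2-Eb2 (59.8 against 49.4 CPM), the NF-kB subunit Relb (312 against 225 CPM), Adam19, Htr7 and Tbc1d8 also lay within 2-fold.

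Of 18 genes listed for cDC2s, 15 were counted, 12 were at least 2-fold higher in immature cDC2s and 0 in LysoDCs, with a median log2 ratio of 2.58. Epcam (chr17:87635979-87651129, plus strand), an adhesion molecule of epithelia and of some DCs, was at 386 CPM in cDC2s against 1.71 in LysoDCs and 2.18 to 3.91 in blood. Its UMIs were found in 70.8% of cDC2s and 2.29% of LysoDCs. Ltb, the membrane-bound cytokine lymphotoxin beta, was at 764 against 16.1 CPM. Cd7, the receptor Ccr6 for CCL20 and the tetraspanin Cd9 were at 87.3 against 1.02 CPM, 114 against 6.26 CPM and 149 against 24.8 CPM. The usual lectin markers of cDC2s in other tissues were low here. Cd209a was at 15.1 against 3.76 CPM and Clec10a at 14.5 against 4.21 CPM, while DN blood cells of the library had 489 and 429.9 CPM. Both lectins were found in a small share of immature cDC2s (5.26% and 4.74%).

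The LysoDC and tissue phagocyte list ran the other way. Of 20 genes, 17 were counted, 14 were at least 2-fold higher in immature LysoDCs, 1 in cDC2s, and the median log2 ratio was -3.87. The genes of the C1q complement protein, which lie side by side on chromosome 4, were at 326 against 9078 CPM for C1qa (chr4:136895917-136898803, minus strand), 193 against 6016 CPM for C1qb and 86.5 against 3386 CPM for C1qc. Lyz1, a lysozyme gene that gives LysoDCs their name, was at 528 against 13884 CPM, and its neighbour Lyz2 at 9241 against 35048 CPM. Lyz1 and Lyz2 are close copies, and reads that fit both can be split or dropped between them. Csf1r, the receptor for macrophage colony-stimulating factor, was at 161 against 872 CPM. Cx3cr1, the fractalkine receptor, was at 23.6 against 343 CPM and Adamdec1, a gut macrophage metalloprotease, at 34.6 against 1034 CPM.

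For several of these genes the cDC2 level was close to or below that of blood cells. Per cell, C1qa gave 122 UMIs in LysoDCs, 2.5 in cDC2s and 1.91 to 2.1 in the blood populations. Lyz1 gave 186 UMIs per LysoDC, 4.05 per cDC2 and 2.96 to 3.5 per blood cell. Cx3cr1 UMIs were in 91.3% of LysoDCs, 13.1% of cDC2s and 78.5 to 86.6% of blood cells, which express the gene themselves. The exception was Plet1, a surface protein placed in this list, which was at 251 CPM in cDC2s and 7.51 in immature LysoDCs. Among the other LysoDC sums Plet1 ran from 3.77 to 151 CPM, lowest in follicular and highest in mature LysoDCs. Cd68 and Fgl2 lay within 2-fold, and Adgre1, the F4/80 antigen, was not counted at 6.73 and 6.03 CPM.

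The genes of the sort antibodies describe the gates and are no findings, although 4 of the function lists below also hold some of them, and counts without them are given there. Mertk was at 1.21 against 47.3 CPM, Itgam (CD11b) at 19.2 against 132 CPM and Sirpa at 132 against 324 CPM. Cd24a was at 111 against 3.99 CPM, F11r (JAM-A) at 84.8 against 9.56 CPM and Emb (embigin) at 230.4 against 89.7 CPM, while Itgax (CD11c, 254 against 339 CPM) and the class II genes lay within 2-fold. Cd4, Xcr1 and Cd101 were not counted.

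Outside the sort genes, the largest ratio on the cDC2 side was that of Btla (chr16:45224315-45257670, plus strand), an inhibitory receptor that binds HVEM. It had 565 UMIs in cDC2s and 1 in LysoDCs, 76 and 0.114 CPM, a log2 ratio of 9.38 with an interval of 6.90 to 14.69, and 4.98 to 24.5 CPM in blood. Ppp1r14a, an inhibitor of myosin phosphatase, was at 249 against 0.455 CPM and at 1.66 to 3.13 CPM in blood. Itgae (chr11:73090583-73147446, plus strand), the integrin chain CD103 that binds E-cadherin, was at 165 against 0.569 CPM. Siglecg, an inhibitory receptor for sialic acid, was at 213 against 0.797 CPM, in 74% of cDC2s and 1.07% of LysoDCs. Ctnnd2, delta-catenin, had 416 UMIs in cDC2s and 0 in LysoDCs, which is at least 164-fold higher against the floor of 3 counts for the sum.

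Several of these genes were also high in blood cells. Pglyrp1, a peptidoglycan-binding protein, was at 292 against 1.14 CPM but at 1131 CPM in CD43+ monocytes, and Plac8 was at 751 against 6.72 CPM but at 1165 CPM in Ly6C+ monocytes. Id2, an inhibitor of helix-loop-helix factors that DC development requires, was at 602 against 6.15 CPM and 47.7 to 59 CPM in blood. The remaining largest ratios were those of the receptor Gpr35 (95.3 against 0.683 CPM), the Rab GTPase-activating protein Tbc1d4 (259 against 2.05 CPM), the lectin Klrd1 (126 against 1.37 CPM), the transporter Slc46a3 (124 against 1.37 CPM) and the growth factor midkine, Mdk (59.9 against 0.683 CPM).

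On the LysoDC side the largest ratio was that of Mmp2 (chr8:92827291-92853420, plus strand), a secreted gelatinase, at 4.98 CPM in cDC2s and 217 in LysoDCs, which is 43.7-fold (interval 31.6 to 62.2) higher in LysoDCs. Its UMIs were in 89.3% of LysoDCs and 3.61% of cDC2s. Acod1 (chr14:103046977-103056573, plus strand), the enzyme that makes itaconate, was at 15.2 against 519.8 CPM and was found in 93.9% of LysoDCs, 10.3% of cDC2s and 9.67 to 9.8% of blood cells. Its cDC2 share is thus near that of blood. The secreted phospholipase Pla2g2d was at 27.1 against 907 CPM, the channel gene Calhm6 at 9.02 against 284 CPM and the guanine deaminase Gda at 17.6 against 496 CPM. Ceruloplasmin, Cp, a copper protein that oxidises iron, was at 3.63 against 129 CPM, and the cholesterol exporter Abca1 at 2.29 against 65 CPM. Slc1a2, Cpxm1, Art2b, Tspan10 and Hs3st2 completed the 15, with cDC2 levels of 3.5, 3.23, 2.15, 2.83 and 2.83 CPM.

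**Figure D2:**
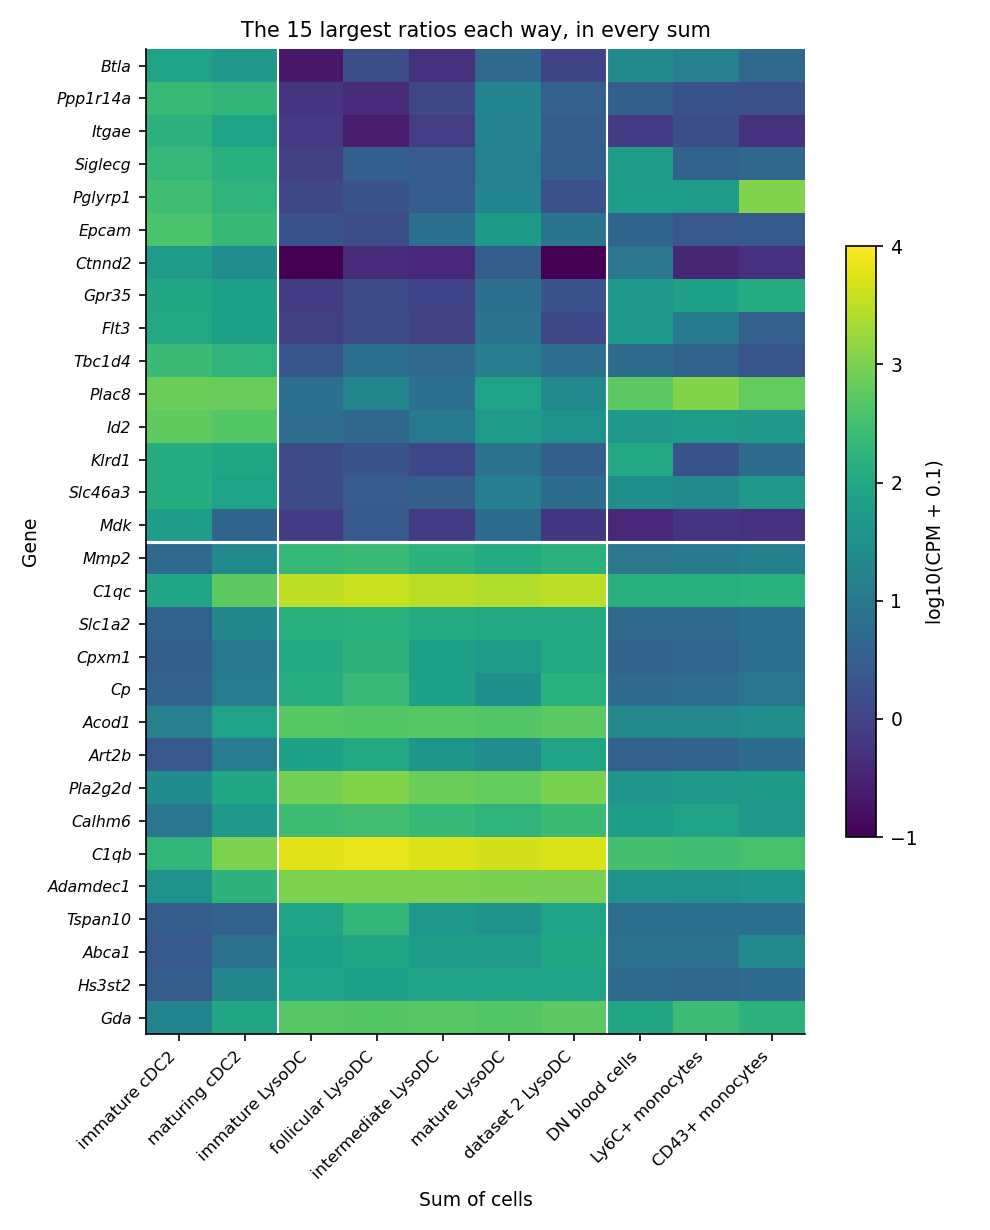
Levels (log10 of CPM + 0.1, colour) of the 15 genes with the largest ratio on each side, in rows, across the 10 sums of cells in columns: cDC2s, LysoDCs and blood cells, divided by white lines. The upper 15 genes are high in immature cDC2s and low in immature LysoDCs, and the lower 15 are high in all 5 LysoDC sums, with maturing cDC2s between the cDC2 and LysoDC levels for most of them.

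Of 12 counted growth factor receptors and ligands, 6 lay within 2-fold. Flt3 and Kit were the 2 higher in cDC2s (16.7%, beside 13.4% over all counted genes). Csf1r, Csf3r (11 against 42 CPM), Il3ra (26.6 against 60.9 CPM) and Tnfrsf11a, the receptor for RANKL (7.94 against 34.3 CPM), were the 4 higher in LysoDCs (33.3%, beside 10.4%). Csf2ra and Csf2rb, the chains of the GM-CSF receptor, lay within 2-fold (268 against 419.7 CPM and 480.5 against 306.96 CPM). Blood cells held Csf1r at 405 to 1138 CPM, above the 161 CPM of cDC2s.

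Of 20 DC transcription factors, all counted, 9 were at least 2-fold higher in immature cDC2s and 4 in LysoDCs (median log2 0.85). Besides Id2, Bcl11a and Zbtb46, the cDC2 side held Klf4 (55.2 against 3.53 CPM), which blood cells had at 172 to 468 CPM, Batf3 (203 against 53.6 CPM), Irf4 (25 against 10.2 CPM), Ahr (126 against 47 CPM), Bcl6 and Rara. The LysoDC side held Irf8 (81.6 against 247 CPM), a factor better known from type 1 DCs and monocytes, Zeb2 (159.6 against 541 CPM), Nfil3 and Prdm1. Notch2, Relb, Runx3, Rbpj, Ikzf1, Batf and Tcf4 lay within 2-fold.

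Of 17 counted macrophage and monocyte factors, 9 were higher in LysoDCs and 1 in cDC2s (median log2 -1.21). Nr1h3, the oxysterol receptor LXR alpha, was at 31.8 against 412 CPM and Mitf at 24.4 against 154 CPM. Tfec, a relative of Mitf and Tfeb, was at 1.48 CPM in cDC2s and 47.3 in LysoDCs, a 31.9-fold (interval 17.7 to 64.4) difference. Maf, Cebpa, Cebpb, Runx1 and Nfe2l2 were also higher in LysoDCs. Bhlhe40 was higher in cDC2s (229.9 against 43.7 CPM). Spi1, the myeloid factor PU.1 (862 against 629.6 CPM), Tfeb (45.8 against 36.1 CPM), Tfe3 and Bach1 lay within 2-fold.

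Antigen presentation by MHC class II differed in its regulators and little in its main chains. H2-Aa was at 6803 against 7089 CPM, H2-Eb1 at 8009.5 against 7798 CPM and the invariant chain Cd74 at 26614 against 22020.5 CPM. The genes of H2-O, a brake on peptide loading by H2-DM, were the exception: H2-Oa (chr17:34092340-34095234, plus strand) was at 365 CPM in cDC2s and 6.03 in LysoDCs, 60.4-fold (interval 46.1 to 80.9) higher, and H2-Ob was at 83.2 against 2.85 CPM. Ciita, the master regulator of class II genes, was at 458 against 109 CPM. H2-DMb1 (250.1 against 618 CPM) and the class II protease Ctss (1149.9 against 2301 CPM) were higher in LysoDCs, and H2-DMa (588 against 713 CPM) and H2-DMb2 (522 against 270.1 CPM) lay within 2-fold. In all, 3 of 14 counted genes were higher in cDC2s and 2 in LysoDCs, and the 3 class II chains of the sort were not among these.

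Of 19 class I and peptide-loading genes, 7 were at least 2-fold higher in immature LysoDCs and 0 in cDC2s (median log2 -0.74). They included H2-K1 (849 against 2120.2 CPM), H2-D1 (792 against 1759.8 CPM), B2m (920.3 against 2099 CPM) and Nlrc5, the activator of class I genes (3.77 against 22.1 CPM). H2-Q6 and H2-Q7 are near-identical copies whose split of reads is uncertain. The immunoproteasome subunit Psmb8 (604 against 582 CPM) and the transporter genes Tap1 (102 against 151 CPM) and Tap2 (43.7 against 49.6 CPM) lay within 2-fold.

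Costimulatory and inhibitory ligands and receptors were more often higher in cDC2s, 6 of 12 counted against 2 (median log2 1.003). Beside Btla these were Cd83 (101 against 3.19 CPM), Icosl (34.9 against 0.683 CPM), Cd86 (102 against 35 CPM), Cd40 (67 against 31.9 CPM) and Cd200r1 (13.9 against 0.455 CPM). Among the cDC2 clusters described below, Cd83 was at 13.4, 61.3 and 466 CPM in clusters 2, 3 and 5, and Btla at 104, 66 and 65.7 CPM. Vsir, the inhibitory receptor VISTA (40.8 against 209 CPM), and Lgals9 were higher in LysoDCs. Cd80, Cd274 and Pdcd1lg2 lay within 2-fold.

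The receptors that guide migration were nearly all on one side or the other: 8 of 18 counted were higher in cDC2s, 9 in LysoDCs and 1, Ccr1, lay within 2-fold. The cDC2 set held Ccr7, which leads DCs to T cell zones (63.1 against 1.02 CPM), Ccr6, Ccr9 (291 against 124 CPM), Cxcr4 (30 against 2.96 CPM), Gpr183 (179 against 72.3 CPM), P2ry6 and Ptger4. P2ry10 had 280 UMIs in cDC2s and 1 in LysoDCs, a log2 ratio of 8.37 (interval 5.88 to 13.68). The LysoDC set included Cx3cr1, Ccr2 (21.4 against 243 CPM), C5ar1, the receptor for complement C5a (2.56 against 49.2 CPM), Fpr2 for formyl peptides (7.94 against 50.3 CPM), S1pr2, P2ry12, P2ry13 and P2ry14. Of the chemokines, 16 of 24 were not counted. Ccl22 was higher in cDC2s (22.3 against 4.44 CPM), but not without the cells of clusters 4 to 6 and the stray cells described below (1.07 against 4.86 CPM), and Cxcl10 in LysoDCs (3.36 against 50.6 CPM).

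**Figure D3:**
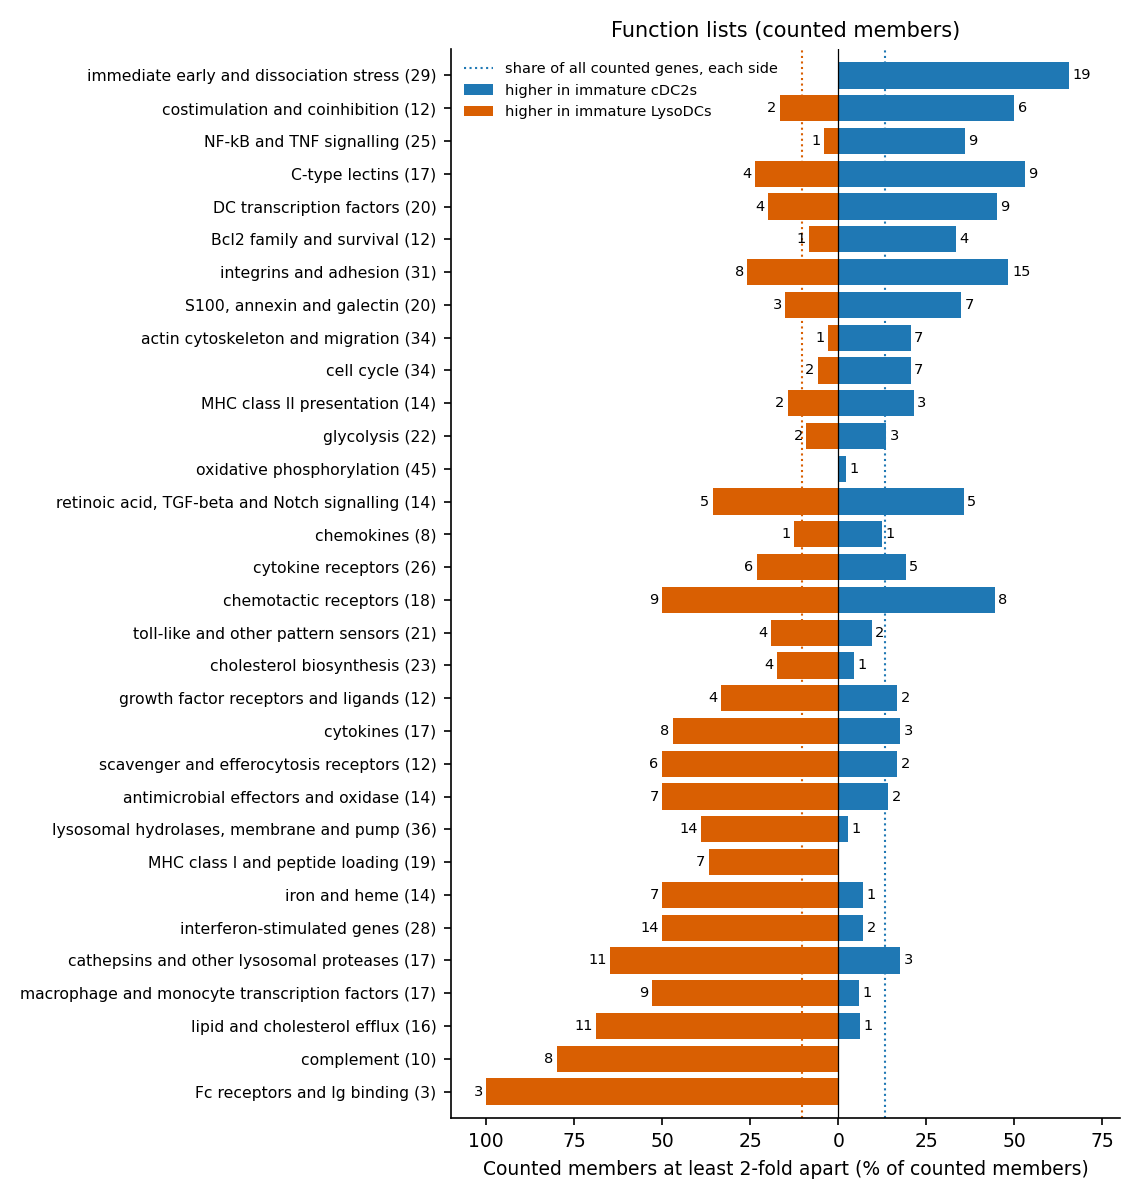
Share of counted members of each function list (number counted in brackets) that were at least 2-fold higher in immature cDC2s (blue, to the right) or immature LysoDCs (orange, to the left), with the number of genes at each bar and dotted lines at 13.4% and 10.4%, the shares over all counted genes. The Fc receptor, complement, lipid efflux and cathepsin lists extend furthest to the left, and the immediate early, costimulation and adhesion lists far to the right, as does the lectin list, whose median turned negative at a minimum of 20 CPM and with the dominant hashtag.

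Genes of the lysosome, in which engulfed material is degraded, were mostly higher in LysoDCs or alike. Of 17 counted cathepsins and other lysosomal proteases and their inhibitors, 11 were higher in immature LysoDCs and 3 in cDC2s (median log2 -1.78). Ctsd (chr7:142375911-142388038, minus strand), the aspartic protease cathepsin D, was at 86.4 CPM in cDC2s, 1004 in LysoDCs and 163 to 286 in blood, which is 11.6-fold (interval 10.7 to 12.6) higher in LysoDCs. Ctsl was at 32.4 against 333 CPM, Ctsb at 199 against 854 CPM, Ctsz at 1297 against 4443 CPM and Ctsf at 1.75 against 32.2 CPM. The 3 higher in cDC2s were the legumain gene Lgmn (14.9 against 0.569 CPM, with 40.5 to 62.7 CPM in blood), the aspartic protease Napsa (1180.2 against 238 CPM) and the inhibitor cystatin C, Cst3 (2415 against 565 CPM). Ctsh (639.7 against 491 CPM) and Ctso lay within 2-fold.

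Of 36 counted lysosomal hydrolases, membrane proteins and proton pump subunits, 14 were higher in LysoDCs and 1 in cDC2s (median log2 -0.86), and with TMM scaling the numbers were 21 and 1. The tetraspanin Cd63 was at 165 against 2297 CPM, the acid phosphatases Acp5 and Acp2 at 481 against 2270.5 CPM and 37 against 242 CPM, the cholesterol carrier Npc2 at 198 against 965 CPM, Lamp1 at 618 against 2360.3 CPM and the saposin precursor Psap at 704 against 2618 CPM. Most others differed less. Fuca1 (162 against 161 CPM), Gusb (67.8 against 69.1 CPM), Npc1 (52 against 53.9 CPM) and the counted subunits of the proton pump, among them Atp6v1a and Atp6v0d1, lay within 2-fold.

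Many lysosomal genes carry the CLEAR element, the palindrome TCACGTGA that TFEB, TFE3 and MITF bind, near their start. RefSeq promoter windows of GRCm38.p6, from 250 bases before to 50 after the start, were searched on both strands for these 8 letters. They occurred in 1.125% of the 27025 genes with a window, in 7 of the 41 counted lysosomal genes that had one, and in 2 of 22 higher in LysoDCs, 5 of 17 within 2-fold and 0 of 2 higher in cDC2s. The 2 were Ctsd and Ctsa (199.9 against 520.0 CPM), and the 5 were Gla (5.25 against 10.2 CPM), Atp6v0d1, Atp6v1a, Cln3 and Mcoln1. The windows of Ctsd and Ctsa are printed because both genes were higher in LysoDCs, and that of Gla because it holds the letters at a ratio just inside 2-fold. They read 5′ to 3′ along each gene's own strand, with the motif in capitals, from chr7:142387778-142388077, minus strand, chr2:164833523-164833822, plus strand and chrX:134600956-134601255, minus strand.
Ctsd: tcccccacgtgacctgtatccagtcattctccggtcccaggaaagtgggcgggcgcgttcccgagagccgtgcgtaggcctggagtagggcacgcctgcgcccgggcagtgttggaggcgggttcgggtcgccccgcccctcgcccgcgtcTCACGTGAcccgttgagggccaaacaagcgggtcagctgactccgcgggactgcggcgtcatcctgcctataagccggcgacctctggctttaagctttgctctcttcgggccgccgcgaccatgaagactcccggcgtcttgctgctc
Ctsa: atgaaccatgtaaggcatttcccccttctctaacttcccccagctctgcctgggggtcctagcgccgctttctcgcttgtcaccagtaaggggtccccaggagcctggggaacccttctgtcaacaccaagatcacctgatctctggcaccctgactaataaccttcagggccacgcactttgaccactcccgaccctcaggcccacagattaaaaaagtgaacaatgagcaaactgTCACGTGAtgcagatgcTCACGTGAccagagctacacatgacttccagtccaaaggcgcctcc
Gla: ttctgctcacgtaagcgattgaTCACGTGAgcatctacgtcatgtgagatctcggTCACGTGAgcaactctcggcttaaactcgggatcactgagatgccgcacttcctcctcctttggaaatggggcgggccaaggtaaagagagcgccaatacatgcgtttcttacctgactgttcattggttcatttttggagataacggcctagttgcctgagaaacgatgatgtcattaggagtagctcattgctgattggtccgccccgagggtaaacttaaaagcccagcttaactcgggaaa
Distances are from the RefSeq start of each window. The motif starts 99 bases before that of Ctsd. The Ctsd span printed above, from GENCODE, begins further upstream, so the motif lies inside that span. Ctsa and Gla hold it at 2 places each. In Ctsa these start 13 bases before and 4 bases after the start, and in Gla both lie before it. The letters describe the window only, and the share of genes holding them was not larger among those higher in LysoDCs than among those within 2-fold.

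Microbe-killing genes were higher in LysoDCs for 7 of 14 counted and in cDC2s for 2 (median log2 -1.09). The pore-forming Mpeg1 was at 41.6 against 516 CPM, Gbp2 at 13.7 against 83.8 CPM and Cybb, the catalytic chain of the phagocyte oxidase, at 363 against 874 CPM. Its partners Ncf1 (415 against 610.4 CPM) and Cyba lay within 2-fold, and Ncf4 (287 against 139 CPM) and the GTPase Rac2 (245 against 21.2 CPM) were higher in cDC2s.

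Of 10 counted complement genes, 8 were higher in LysoDCs and 0 in cDC2s (median log2 -3.34). Beside C1q these were factor B, Cfb (52.2 against 786 CPM), properdin, Cfp (426 against 1222 CPM), C3 (2.96 against 12.9 CPM), C5ar1 and Itgam. Without the sort genes Itgam and Itgax, 7 of 8 were higher in LysoDCs. All 3 counted genes of the Fc receptor and immunoglobulin-binding list were higher in LysoDCs: Fcgr3 (7.13 against 113 CPM), the shared signalling chain Fcer1g (499 against 1221 CPM) and Pirb (111 against 262 CPM). The other 10 genes of that list were not counted.

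Receptors for dead cells and modified lipids were higher in LysoDCs for 6 of 12 counted, with 2 higher in cDC2s (median log2 -1.03). Msr1, a scavenger receptor, was at 8.48 against 205 CPM, the TAM receptor Axl at 4.85 against 61.6 CPM, Stab1 at 8.48 against 83.3 CPM and the integrin Itgb5 at 2.02 against 38.9 CPM. Without the sort gene Mertk, 5 of 11 were higher in LysoDCs. Elmo1 (180.5 against 41.6 CPM) and Cd300a (157 against 26.3 CPM) were higher in cDC2s.

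Lectins were split. Of 17 counted, 9 were higher in cDC2s, among them Ly75, the endocytic receptor DEC-205 (19.8 against 1.82 CPM), Clec12a (17.6 against 1.25 CPM) and Cd69 (96.4 against 17.9 CPM), and 4 in LysoDCs, led by the glycolipid sensors Clec4e (4.44 against 66.2 CPM) and Clec4d (3.23 against 37.9 CPM). At a minimum of 20 CPM, 8 lectins were counted, with 2 higher in cDC2s and 4 in LysoDCs. With the dominant hashtag the numbers were 5 and 4 of 13. Of 21 counted pattern sensors, 15 lay within 2-fold, which is near the 76.3% of all counted genes. Of the others, 2 were higher in cDC2s and 4 in LysoDCs, and with TMM scaling 2 and 10 were. Tlr7 (2.15 against 22 CPM), Tlr12 (3.77 against 20.2 CPM), Tlr1 and Ly96 were higher in LysoDCs, and Tlr13 (17.2 against 4.67 CPM) and Nlrp1b in cDC2s.

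Genes of cholesterol and lipid handling were also mostly higher in LysoDCs or alike. Of 16 counted efflux and storage genes, 11 were higher in LysoDCs and 1 in cDC2s (median log2 -1.38). Apoe was at 789 against 15315 CPM, but 2927 to 4699 CPM in blood cells, so that the cDC2 level was below blood. Apoc2 was at 11.7 against 242 CPM, Gpnmb at 14.5 against 229 CPM and Abcg1 at 4.17 against 18.7 CPM, and the phospholipid transfer gene Pltp was higher in cDC2s (87.6 against 27.3 CPM). Of 23 counted genes of cholesterol synthesis, 18 lay within 2-fold, which is near the 76.3% of all counted genes. The 4 higher in LysoDCs included Dhcr7 (25.7 against 113 CPM), Tm7sf2 and Sc5d, enzymes of the late steps, and the 1 higher in cDC2s was Srebf2 (109 against 48 CPM), the pathway's transcription factor.

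Iron genes were higher in LysoDCs for 7 of 14 counted and in cDC2s for 1 (median log2 -1.07). The ferritin chains Fth1 and Ftl1 were at 6056 against 34073 CPM and 2809 against 8452 CPM. Haem oxygenase Hmox1 was at 7.67 against 46.3 CPM, biliverdin reductase Blvrb at 38.5 against 154 CPM and the transferrin receptor Tfrc at 23.7 against 90.7 CPM.

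Of 28 counted interferon-stimulated genes, 14 were higher in immature LysoDCs and 2 in cDC2s (median log2 -1.01). Rsad2, or viperin, was at 1.75 against 36.5 CPM, Oasl1 at 1.08 against 21.2 CPM, Irf7 at 7.54 against 59.4 CPM, Zbp1 at 6.73 against 53.9 CPM and Bst2 at 236 against 1065 CPM. The regulators Stat2 and Irf9 lay within 2-fold. The 2 higher in cDC2s were the close copies Ifitm1 (888 against 36.8 CPM) and Ifitm2 (645 against 207 CPM), whereas Ifitm3 was at 932 against 1849 CPM.

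Among 17 counted cytokines and soluble regulators, 8 were higher in LysoDCs and 3 in cDC2s (median log2 -0.81). Il22ra2, the secreted decoy receptor for IL-22, was at 737 CPM in cDC2s and 3468 in LysoDCs, against 152 to 212 CPM in blood, so that both populations exceeded the blood level. Il18bp, the soluble inhibitor of IL-18, was at 8.88 against 151 CPM, Pdgfa at 8.61 against 174 CPM, Il1rn at 67 against 162 CPM and Il1a at 1.08 against 25.4 CPM. The cDC2 side held Ltb, Ebi3 (20.5 against 1.48 CPM) and Il1b (805 against 379 CPM), and Tgfb1 (281 against 284 CPM) and Il12b (9.15 against 12.6 CPM) lay within 2-fold. Of 26 counted cytokine receptors, 5 were higher in cDC2s and 6 in LysoDCs. The cDC2 side included Il7r (40.4 against 0.455 CPM), Tnfrsf13b, or TACI (40.5 against 2.73 CPM), and Tnfrsf18, or GITR, with 166 UMIs against 1 (log2 7.62, interval 5.12 to 12.93). The LysoDC side included Ifnar2 (90 against 298 CPM) and Il2rg (135 against 276 CPM).

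Adhesion genes were higher in cDC2s for 15 of 31 counted and in LysoDCs for 8 (median log2 0.83), and for 12 and 7 of 26 without the 5 sort genes among them. Itgb7, the partner chain of Itgae and of the gut-homing integrin, was at 75.5 against 3.76 CPM, Itga4 at 332 against 18.4 CPM, Alcam at 89.1 against 2.28 CPM and Jaml at 320.0 against 45 CPM. The LysoDC side held Vcam1 (5.79 against 125 CPM), Itga9 (2.02 against 40.1 CPM), Cd44 (40.8 against 170.3 CPM) and Itgb2 (115 against 251 CPM). Of the S100, annexin and galectin genes, 7 of 20 were higher in cDC2s, led by S100a4 (1832 against 83.5 CPM), S100a11 (2035 against 164 CPM) and Anxa1 (61.2 against 5.35 CPM), and 3 in LysoDCs, Lgals3bp (68.2 against 952 CPM), Lgals9 and Lgals8. With TMM scaling those counts were 6 and 7. Of 34 actin and migration genes, 7 were higher in cDC2s and 1 in LysoDCs, the capping protein Capg (47.9 against 327 CPM). Lsp1, a leukocyte actin-binding protein, was at 975 against 25 CPM, and the membrane linker Ezr at 173 against 19.7 CPM.

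NF-kB and TNF signalling genes were higher in cDC2s for 9 of 25 and in LysoDCs for 1 (median log2 0.50). Rel was at 259 against 57.7 CPM, Nfkb1 at 109.6 against 27.2 CPM, Map3k14, or NIK, at 103 against 18.9 CPM and Malt1 at 222 against 68.8 CPM, while Nfkb2 (125 against 116 CPM), Rela and Relb lay within 2-fold. In the retinoic acid, TGF-beta and Notch list, 5 of 14 were higher on each side. Aldh1a2, which makes retinoic acid, was at 19 against 1.48 CPM and the TGF-beta-induced Tgfbi at 103 against 874 CPM. Of 12 survival genes, Pmaip1 (82.9 against 9.56 CPM), Mcl1 (545 against 245 CPM) and the near-identical Bcl2a1b and Bcl2a1d were higher in cDC2s and Bcl2 itself in LysoDCs (9.69 against 39.3 CPM). With TMM scaling, or against the LysoDCs of dataset 2, 2 survival genes were higher in cDC2s in place of 4.

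Respiratory chain genes showed little separation: 44 of 45 lay within 2-fold, beside 76.3% of all counted genes. Among glycolysis genes 17 of 22 did so, which is near that share. Pfkp (49.4 against 13.2 CPM) and Aldoc (13.6 against 2.96 CPM) were higher in cDC2s, and Hk3 (3.9 against 31.5 CPM) and Ldhb (9.02 against 36 CPM) in LysoDCs. With TMM scaling 3 glycolysis genes were higher in cDC2s and 5 in LysoDCs. Of 34 cell cycle genes, 25 lay within 2-fold, which is also near the 76.3% of all counted genes. Mki67 (71.9 against 103 CPM) and Top2a (93.4 against 60.7 CPM) were among them. Ccnd2 (212 against 68.4 CPM) and Cdkn1b (128 against 46.1 CPM) were higher in cDC2s, and Cdkn1a (27.7 against 71.7 CPM) in LysoDCs.

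Genes that tissue digestion and handling induce were higher in cDC2s. Of 29 counted immediate early and stress genes, 19 were at least 2-fold higher in cDC2s and 0 in LysoDCs, with a median log2 ratio of 1.82 beside 0.25 over all counted genes. Jun was at 769.6 against 105 CPM, Junb at 479 against 68.8 CPM, Egr1 at 137 against 24.7 CPM, Fos at 195 against 55.7 CPM, Nr4a3 at 28.8 against 1.48 CPM and Hspa1a at 157 against 45 CPM, whereas Hspa8 lay within 2-fold. In the cDC2 clusters 2, 3 and 5 described below, Nr4a3 was at 13, 11.7 and 129 CPM, and Jun at 763, 884 and 507 CPM. The summed level of the list was 7133 CPM in cDC2s and 4044 in LysoDCs. Both populations came through the same digestion in the same library, and the part of these genes in the other cDC2 differences, among them Cd83, Rel and Nfkb1, was not tested.

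Markers of other cell types were mostly low, and which side they were higher on differed by list. The 13 B cell genes summed to 845 CPM in cDC2s and 342 in LysoDCs, with 4 counted: Igkc (549.5 against 27.9 CPM), Ighm (209 against 98.8 CPM) and Cd79a (38.1 against 2.28 CPM) were higher in cDC2s and Cd79b (24 against 208 CPM) in LysoDCs. Without cluster 6 and the other cells left out below, Igkc was at 28.8 against 26.5 CPM, Ighm at 141 against 97.7 and Cd79a at 2.20 against 0.914, so that the differences of Igkc and Ighm were within 2-fold and Cd79a was no longer counted. The 9 plasmacytoid DC genes summed to 755 and 1244 CPM. Ly6d (80.6 against 1.94 CPM), Siglech (11.8 against 1.59 CPM), Cox6a2, Ccr9 and Runx2 (19.6 against 0.114 CPM) were higher in cDC2s and Bst2 in LysoDCs. Without the same cells Ly6d was at 0.826 against 1.71 CPM and Siglech at 1.38 against 1.60, while Runx2 kept its side at 16 against 0.114. Migratory DC genes summed to 1087 CPM in cDC2s and 3513 in LysoDCs, with 4 of 12 counted higher in cDC2s and 3 in LysoDCs. Most of that LysoDC sum was Cd63, a member of this list whose levels are given above with the lysosomal genes. Neutrophil genes summed to 15.9 and 43.6 CPM. The 11 T cell genes summed to 35.1 and 14.7 CPM, and the 12 epithelial genes to 20.6 and 4.67 CPM, so Epcam at 386 CPM was not accompanied by them. Of the type 1 DC genes, Itgae and Wdfy4 (215 against 18.6 CPM) were higher in cDC2s and Ppt1 in LysoDCs, while the defining Clec9a was at 2.96 and 0.342 CPM.

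Clustered together on the 2000 most variable genes, the 1625 cells fell into 6 groups, which are called by number and by genes that lead them. Cluster 1 (607 cells) held 594 LysoDCs, 90.7% of that tag, and 13 cDC2s, 1.34% of theirs. Clusters 2, 3 and 5 held 292, 434 and 143 cDC2s, or 30.1%, 44.7% and 14.7% of the tag, and 1, 0 and 3 LysoDCs. The 0 LysoDCs of cluster 3 allow a share of up to 0.562%. The tags were thus almost wholly apart, and immature LysoDCs made 1 large group where cDC2s made 3.

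**Figure D4:**
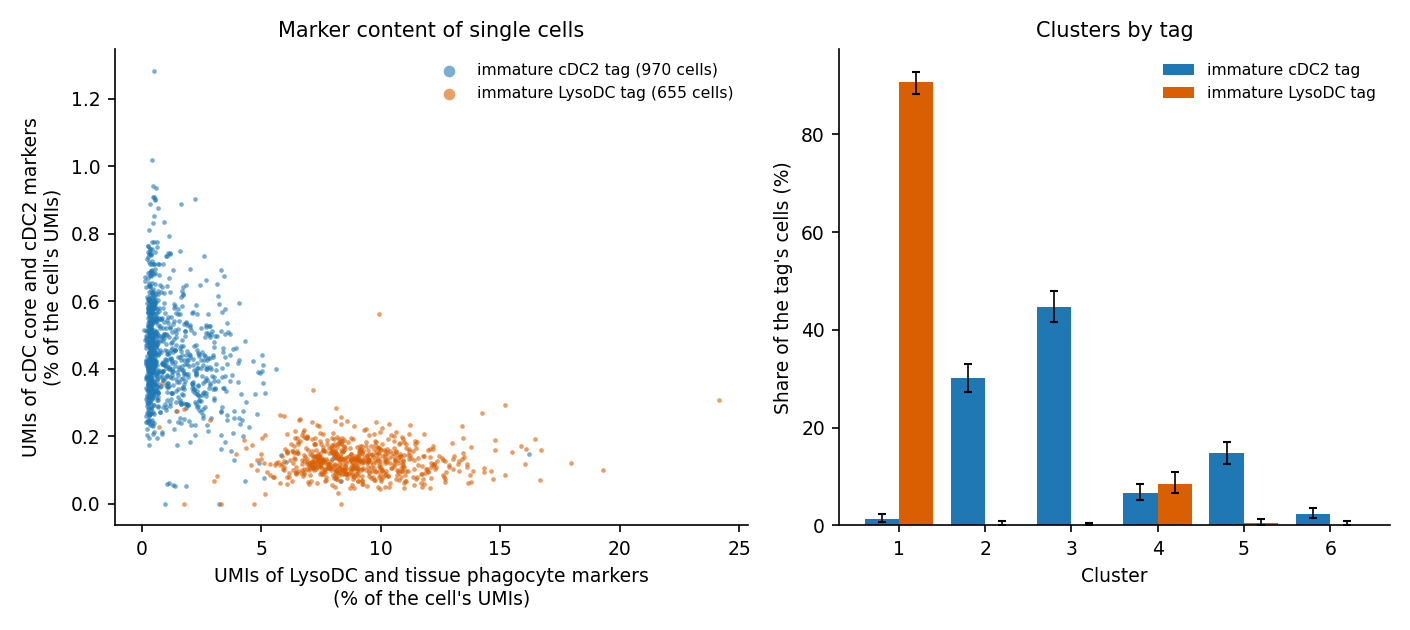
Left, each of the 1625 cells by the share of its UMIs (%) from LysoDC and tissue phagocyte markers (horizontal) and from core conventional DC and cDC2 markers (vertical), coloured by hashtag; right, share (%) of each tag's cells in the 6 clusters, with 95% Clopper-Pearson bars. Medians were 0.609% and 0.427% in cDC2s and 8.75% and 0.127% in LysoDCs, so that the 2 tags form separate clouds with few cells between them.

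The cDC2 clusters differed among themselves. Their levels are descriptions, since the same genes formed the clusters. Cluster 2 was led by the elastase gene Mmp12 (100.4 CPM, against 2.01 and 9.25 in clusters 3 and 5), Ppp1r1a, Hpgd, Qpct and Ear2. It had the highest levels of Epcam (595, 295 and 284 CPM in clusters 2, 3 and 5), Itgae (281, 108 and 120.3) and Plet1 (449.6, 97.9 and 327). Lyz2 was at 19444 CPM in cluster 2 and 2900.1 and 5624 in clusters 3 and 5, and Csf1r at 272, 84.5 and 151, while C1qa (330.2, 302.01 and 260.1) differed less among the 3 and lay below the blood sums. Lyz2 and Csf1r were thus higher in cluster 2 than in the other cDC2 clusters without a C1qa level that differed as much.

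Cluster 3 was led by the cadherin Cdh17, Ctnnd2 (95.2 CPM, 20.6 in cluster 2), Cd7 (149, 3.44), Itgb7, Klrd1 and Bcl11a (93.2, 24). Cluster 5 was led by Lad1, Ccr7 (357 CPM, against 8.02 and 19.4), Ccl22 (146, 1.91 and 0.335), Ly75 and Cd83 (466), genes of DC maturation, within cells that the labels call immature. Cd209a and Clec10a were also highest there, at 66.6 and 59.2 CPM, against 7.04 and 3.69 in cluster 3 and 5.73 and 9.92 in cluster 2. Cluster 5 held 60.7% of the 112 Cd209a UMIs of the tag and 53.7% of the 108 of Clec10a, but 20 of the 51 cells with Cd209a and 15 of the 46 with Clec10a. Flt3 (100.01, 116 and 89.8 CPM) and Zbtb46 (56.1, 74.7 and 69.4) were alike in clusters 2, 3 and 5.

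Cluster 4 (121 cells) was led by cell cycle genes such as Esco2, Pbk and Pclaf, and was the 1 cluster with over 5% of the cells of each tag, with 65 cDC2s (6.70%, interval 5.21 to 8.46%) and 56 LysoDCs (8.55%, interval 6.52 to 10.96%). Within it the tags kept their own genes: Flt3 was at 111 and 0 CPM in cells of the cDC2 and LysoDC tag, Epcam at 203 and 2.16, and C1qa at 231 and 7935. Mdk was highest there, at 246 CPM in the cDC2 tag. Top2a was at 1001 and 513 CPM.

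Cluster 6 (24 cells, 23 of the cDC2 tag) had Cd79a (1860.0 CPM), Igkc (25906), Ly6d (3967), Cox6a2 and Siglech, markers of B cells and plasmacytoid DCs, and is left without a name. With cluster 6, the 13 cDC2-tagged cells of cluster 1 and the LysoDC-tagged cells of clusters 2, 5 and 6 left out, 934 and 650 cells remained, and 1033 genes were higher in cDC2s and 818 in LysoDCs. Of the earlier calls 7 then lay on the other side, all from cDC2s: Ly6d, Siglech, Jchain, Mzb1, Iglc1, Ly6a and Vpreb3, which are named after their values were seen.

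**Figure D5:**
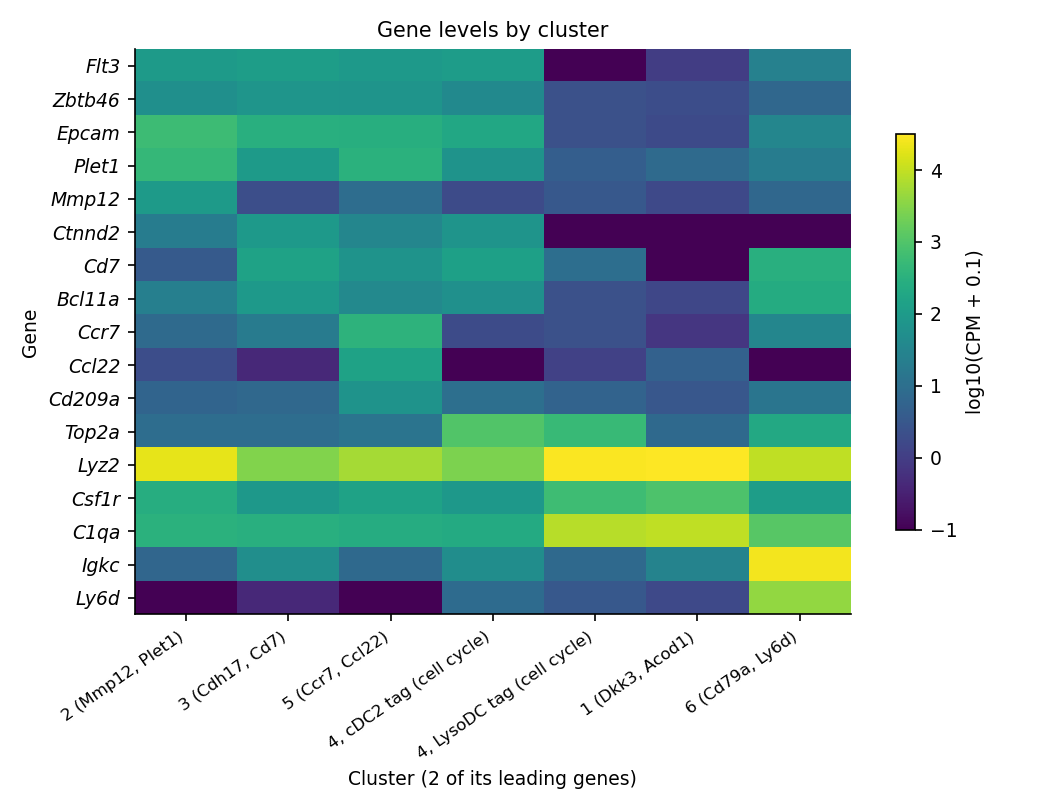
Level (log10 of CPM + 0.1, colour) of 17 genes, in rows, in the clusters, in columns, with cluster 4 divided by hashtag. Flt3, Zbtb46 and Epcam are present in every cDC2 column, Mmp12 and Lyz2 are highest among them in cluster 2, Ccr7 and Ccl22 in cluster 5, and C1qa is highest in the LysoDC columns.

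The same contrast one stage on was available in maturing cDC2s (261 cells) and mature LysoDCs (455 cells), which share no cells with the first pair but share its library. Of 7663 counted genes, 677 (8.83%) were at least 2-fold higher in maturing cDC2s and 698 (9.11%) in mature LysoDCs. Of the 1047 genes higher in immature cDC2s, 910 were counted in both pairs, and 487 of these (53.5%) were at least 2-fold higher in maturing cDC2s and 8 in mature LysoDCs. Of the 811 higher in immature LysoDCs, 759 were counted in both, with 536 (70.6%) on the LysoDC side again and 0 on the cDC2 side. Among genes within 2-fold in the first pair, 2.18% were higher in maturing cDC2s and 1.97% in mature LysoDCs. The median log2 ratio went from 1.58 to 1.05 for the cDC2 genes and from -1.86 to -1.31 for the LysoDC genes, so ratios were smaller in the second pair. Each population there had more of the other's genes: C1qa was at 1514 CPM in maturing cDC2s and 326 in immature ones, and Epcam at 53.4 in mature LysoDCs and 1.71 in immature ones. Whether cells of the other population among them account for this was not tested.

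Dataset 2 gave LysoDCs from other mice, tagged before sorting and prepared as other libraries, so differences from it include those of dataset. Its titles name follicular, immature, intermediate and mature LysoDCs, pooled here, so the differences can also include those of subset. Set against the same cDC2s, its 681 LysoDCs gave 1020 genes higher in cDC2s and 885 in LysoDCs, among them 831 of the 1047 and 716 of the 811. Of the rest, 2 changed side. Several leading genes were within 2-fold of their immature LysoDC level: Flt3 was at 1.09 CPM, C1qa at 7806, Lyz1 at 12059, Mmp2 at 162, Acod1 at 544 and Ctsd at 802 CPM. Btla, Epcam and Id2 were more than 2-fold above it, at 0.955, 8.6 and 34.7 CPM against 0.114, 1.71 and 6.15 CPM, and below the cDC2 level. Mature LysoDCs of dataset 1 had these 3 genes at 5.07, 53.4 and 58.2 CPM, and the part of subset was not tested.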

How the data were processed

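Gene and hashtag UMIs were deposited as whole, unscaled counts for each barcode. Per the file headers the matrices were written by Cell Ranger 6.0.1, while the submitters' processing notes name Cell Ranger 2.0.0 and mm10. Hashtags were called with HTODemux of Seurat 5.3.0 (positive quantile 0.99), and of 11878 barcodes of dataset 1, 8343 had 1 hashtag, 2422 with several were removed as doublets and 1113 had none. The 2 datasets share 37 barcodes, of which 0 join the 2 tags to dataset 2 LysoDCs. Counts were summed per tag and scaled to CPM in Python 3.11.15. Level intervals are exact Poisson and ratio intervals exact Clopper-Pearson given the gene's total. Genes at 0 were compared with a floor of 3 counts per sum. Gene positions come from GENCODE for GRCm38, matched for 99.6% of identifiers. Clusters are from scanpy 1.11.5 (30 components, 20 neighbours, resolution 0.5). Ratios were tested on simulated data.

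Members and gene lists were chosen with earlier results of these data known. Genes were named as the 15 largest ratios each way (at least 50 CPM, without sort-gate, mitochondrial, ribosomal, haemoglobin, immunoglobulin and unnamed genes), up to 4 extreme and 2 unchanged members of each of 32 function lists, and all members of the cDC core, cDC2 and LysoDC lists. Further members are named for their role, with their values seen. List genes without a row in the matrix (7) were not analysed here. A few list members that enter the counts are not reported here by name.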

Additional observations from a re-analysis of the deposited data

How the results depend on the processing

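The direction of the named genes' ratios mostly held and their size often moved. For 249 named genes, 3804 values were recomputed under other settings and 3081 stayed within the counting interval of the ratio. Outside it lay 120 of 239 with TMM scaling, 111 of 238 without cells holding more markers of the other type, 107 of 238 with thinned cells, 107 of 241 against dataset 2 and 96 of 234 with the dominant hashtag. The dominant hashtag gave 346 cDC2s and 863 LysoDCs in place of 970 and 655, so the number of cDC2s depended strongly on the calling rule. Among named genes still counted, 1 value changed side: the log2 ratio of Bcl2a1d was -0.0154 against the LysoDCs of dataset 2. TMM scaling moved the genes higher in cDC2s from 1047 to 685. With the cDC2s that held more UMIs of LysoDC than of DC markers left out, 355 cDC2s remained and 1548 genes were higher in cDC2s. Lyz2 gave 9241 of the 12498 CPM of the LysoDC list in cDC2s, so this rule rests largely on 1 gene. Clustering put 13 cDC2s with the LysoDCs of cluster 1. Over all called genes, whether or not still counted, 9 changed side without the cells holding more markers of the other type, Mmp12 and immunoglobulin genes among them. The numbers were 7 without the stray clusters, 10 when the cycling and Ccr7 clusters were left out too, and 2 against dataset 2. The groups found by clustering numbered 6, but 10 at resolution 1 and 4 at resolution 0.25. Thinning lowered the share of cDC2s with Flt3 from 50.4% to 19.6% and that of LysoDCs with Cx3cr1 from 91.3% to 46.3%. The median log2 ratio of the class II, cell cycle, survival, and retinoic acid and TGF-beta lists turned sign with TMM scaling. That of the lectins did so at a minimum of 20 CPM or with the dominant hashtag. Those of the respiratory chain and cytokine receptors did so without mitochondrial and ribosomal genes. The medians of these lists thus carry no direction that holds under all settings. In the class II and survival lists, more members were higher in cDC2s than in LysoDCs in every setting. The cause was not tested. No paired analysis was possible because each population is 1 sum with no replicate number. The single pool per population sets the limit: counting intervals hold no spread between mice.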
